A study of Mus musculus with 6 samples.

Results

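The genes described here encode fibronectin, versican and the proteins that make, bind and degrade hyaluronan, and they were followed in mouse hearts after myocardial infarction (MI) with and without Zeb2 in cardiomyocytes. The 9 genes, Fn1, Vcan, Has1, Has2, Cd44, Hyal1, Hyal2, Hapln1 and Tnfaip6, were chosen by function. They were taken from the count table by their Ensembl identifiers, 9 of 38293 genes in all. No measured value entered the rule, but earlier results of these data were known when the genes were chosen. All 9 had counts, and 7 of them passed edgeR's filter on low counts and could be tested, among 14746 tested genes in the series. RNA depleted of ribosomal RNA was sequenced from the hearts of 3 Zeb2 fl/fl mice, which the labels call WT, and 3 Zeb2 cKO mice, in which a Cre recombinase under the cardiomyocyte αMHC promoter deletes the floxed Zeb2 alleles. Both groups were mice of 8 to 10 weeks at surgery on a backcrossed C57BL/6J strain, both carried the floxed alleles, and both were collected 14 days after the left anterior descending coronary artery had been tied off for good. The control mice carried no Cre, so an effect of the recombinase itself cannot be told apart from the loss of Zeb2. Uninjured hearts were not analysed here, so the values describe genotypes within infarcted hearts and not the response to MI. The labels place the tissue in the border region of the infarct, whereas the methods of the study place it in the remote zone.

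Hyaluronan is a long unbranched sugar chain that is made at the plasma membrane by hyaluronan synthases and extruded directly into the extracellular space. There it is bound by large proteoglycans such as versican, held in place by link proteins, cross-linked through protein heavy chains and sensed by cells through CD44, and it is cut into fragments by hyaluronidases. Together with fibronectin, a glycoprotein that cells assemble into fibrils through integrins, it forms the early provisional matrix of a healing infarct, before fibrillar collagen dominates the scar. In the heart these matrix genes are known mostly from fibroblasts and infiltrating immune cells, whereas the deletion studied here is restricted to cardiomyocytes. ZEB2 is a zinc finger factor that binds E-boxes with the letters CACCT, often within CACCTG, and is best known as a repressor.

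The letters CACCT were therefore searched on both strands in the RefSeq promoter windows (GRCm38.p6), which span 250 bases before to 50 bases after a gene's start, and 7 of the 9 genes had such a window. They occurred in 3 of these 7 windows. Vcan held them at 156 and 71 bases before the RefSeq start, Hyal2 at 87 bases and Hapln1 at 222 bases before it. The windows of Hyal2 and Hapln1 begin at 107568913 and 89540386, inside the Gencode M21 bounds of these genes. Those bounds begin at 107567945 and 89539796, so the matches in Hyal2 and Hapln1 lie upstream of the RefSeq start only. Over all 32851 windows, 51.9% held CACCT on either strand. The longer CACCTG, which contains CACCT, was found in 0 of the 7 windows and in 20.2% of all windows. Matches of letters are a description of the sequence only, and no match says only that these letters are not in this window. The upstream stretches of 2 genes are shown 5′ to 3′ on the strand of the gene, that of Vcan because it held both of its matches, which are capitalised (AGGTG, the reverse complement of CACCT), and that of Hyal1 because it was the member whose genotypes did not overlap. The Vcan stretch is chr13:89742513-89742762 on the minus strand, and the Hyal1 stretch is chr9:107576700-107576926 on the plus strand, cut where annotated exons begin.
Vcan: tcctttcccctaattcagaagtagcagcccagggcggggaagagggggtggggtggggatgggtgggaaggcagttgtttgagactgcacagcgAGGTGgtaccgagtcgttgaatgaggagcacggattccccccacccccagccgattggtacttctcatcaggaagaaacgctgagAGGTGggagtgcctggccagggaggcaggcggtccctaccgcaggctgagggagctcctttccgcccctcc
Hyal1: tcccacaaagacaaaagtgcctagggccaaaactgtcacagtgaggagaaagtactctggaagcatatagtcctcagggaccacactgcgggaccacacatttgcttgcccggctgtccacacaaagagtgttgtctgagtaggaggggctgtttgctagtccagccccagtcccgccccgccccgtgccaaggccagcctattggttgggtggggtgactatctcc
The Vcan stretch ends 1 base before the start and holds both matches on the strand opposite to CACCT. The Hyal1 stretch holds no capital letters, that is, no match on either strand.

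Total counts per library were between 37288174 and 51136331, of which 14301225 to 19024394 lay outside the mitochondrially encoded genes. Values are given as CPM, counts scaled to a common library size, after TMM normalization, and the groups were compared by the quasi-likelihood test of edgeR, with Benjamini-Hochberg adjustment over all 14746 tested genes. For a single gene the exact permutation test of 3 mice against 3 cannot give a two-sided p under 0.1. In 14746 tested genes, 0 (0.0%) had an adjusted p under 0.05, beside 280 at an unadjusted p under 0.05, while DESeq2 called 2. Zeb2, counted over all cells of the tissue, gave 61.3, 116.05 and 71.9 CPM in the controls against 59.6, 72.6 and 66.5 CPM after deletion, and the groups overlapped, so the tissue counts are no check of the deletion in cardiomyocytes.

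One control library, Zeb2 fl/fl replicate 2, stood apart from the other 5, and the fold changes and counts of direction below are therefore also given without it. The summed CPM of 6 fibroblast markers was 7794 in this library and between 1383 and 1932 in the other 5. Macrophage markers were at 674.5 CPM against 169.7 to 237 CPM, and markers of valve interstitial and chondrogenic cells were at 169 CPM against 7.59 to 19.4 CPM. Comp gave 146.5 CPM of the 169 CPM, and which cells it came from was not tested. Cardiomyocyte markers were at 9230.4 CPM in this library against 15524 to 19685 CPM. None of the markers of any of the 9 cell type lists was at 0 in every library, and all 6 cardiomyocyte markers passed the filter. Summed markers of the other lists in Zeb2 fl/fl replicate 2 were 330.3 CPM against 435 to 529 CPM for endothelial cells. For smooth muscle cells and pericytes they were 431 CPM against 582 to 699 CPM, and for adipocytes 125 CPM against 162 to 216 CPM. For mesothelial cells they were 10.6 CPM against 4.71 to 9.86 CPM, and for lymphocytes 2.19 CPM against 0.691 to 1.36 CPM. Not every gene followed its sum. Endothelial Emcn (49.1 CPM) and smooth muscle Tagln (20.8 CPM) were highest in this library. Acta2 was inside the range of the rest, and the other endothelial and smooth muscle genes were lowest in it. The adipocyte sum was almost all Fabp4 (124.7 CPM in this library). Adipoq, Plin1 and Cidec, at 1 to 25 counts, were higher in every Zeb2 cKO than in every Zeb2 fl/fl library. Fabp4, Cfd and Lep overlapped. The part of these cell types in the matrix gene values was not tested. In bulk tissue, fewer cells of a type and less RNA per cell cannot be told apart.

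**Figure D1:**
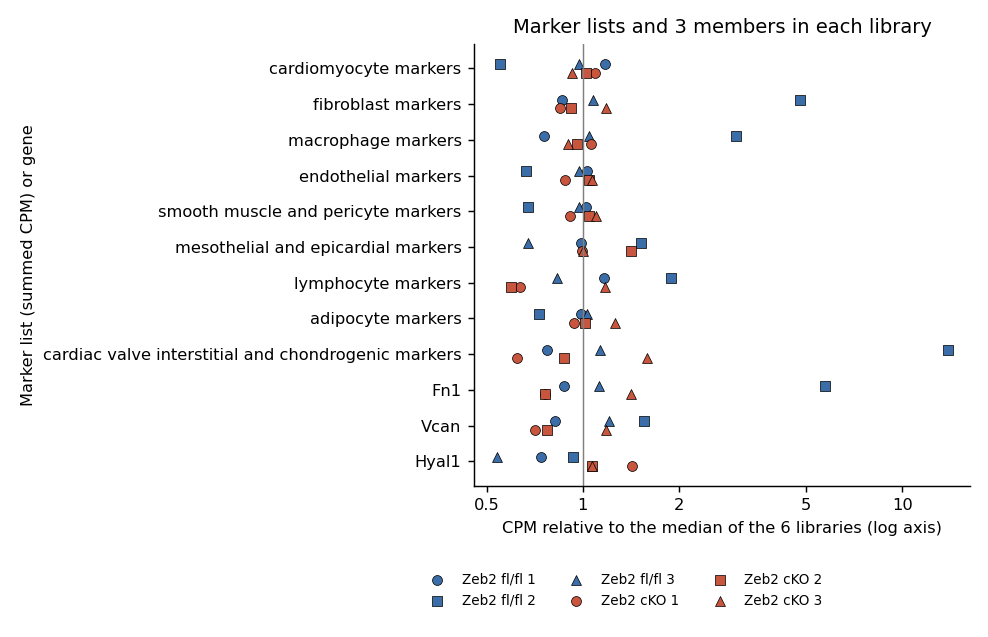
Summed CPM of the markers of 9 cell types, and the CPM of Fn1, Vcan and Hyal1, in each of the 6 libraries, relative to the median of the 6 (log axis). Zeb2 fl/fl replicate 2 (blue square) lies far to the right for fibroblast, macrophage and valve interstitial markers and for Fn1 and to the left for cardiomyocyte markers, whereas for Hyal1 the 3 Zeb2 cKO libraries (red) lie to the right of the 3 Zeb2 fl/fl libraries (blue).

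To compare genes with each other, CPM was divided by the merged length of a gene's annotated exons. On this scale Fn1 led with a mean of 20.3 ± 22.3 CPM per kb (SD over the 6 libraries), followed by Vcan at 5.83 ± 1.85, Hyal2 at 3.34 ± 0.394 and Cd44 at 2.21 ± 0.832 CPM per kb. Below 1 CPM per kb came Tnfaip6 at 0.720 ± 0.476, Hyal1 at 0.666 ± 0.212 and Has2 at 0.403 ± 0.124. The level of Hyal1 and its place are uncertain, since it shares 50.8% of its exon bases with Naa80. The link protein gene Hapln1 at 0.0404 ± 0.0296 CPM per kb and the synthase gene Has1 at 0.0271 ± 0.0116 CPM per kb were at the bottom. Within a library Fn1 was above Vcan, and Vcan above Hyal2, in 6 of 6 libraries. Tnfaip6 and Hyal1 did not differ beyond their spread, since Tnfaip6 was the higher in only 2 of 6 libraries, and Hapln1 was above Has1 in 4 of 6. The median of Fn1, 11.4 CPM per kb, was well under its mean, because a single library carried most of its signal. The matrix proteins thus led the order, while the synthases were among its lower genes.

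**Figure D2:**
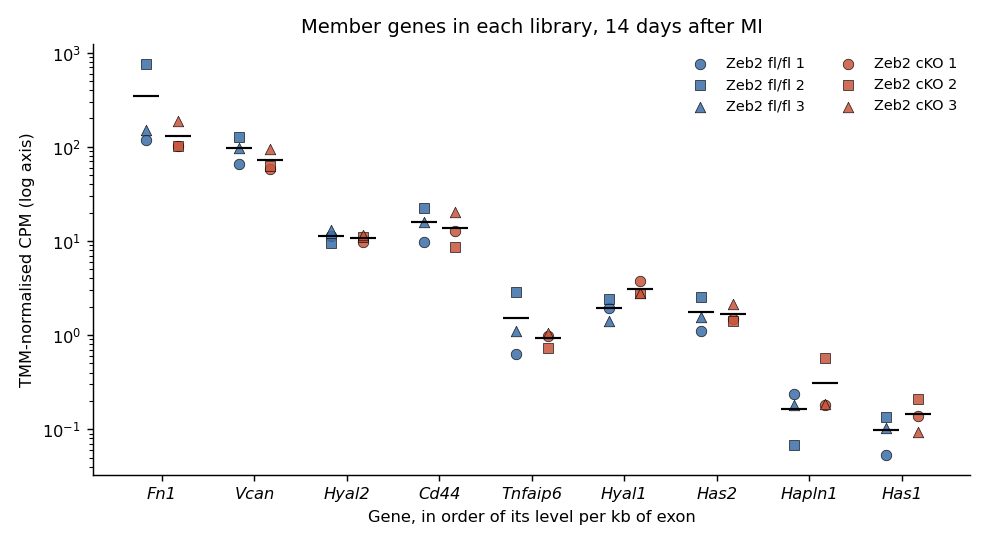
TMM-normalised CPM of the 9 genes in each library (log axis), with Zeb2 fl/fl in blue and Zeb2 cKO in red, a symbol for each replicate and the group mean as a black line. The groups overlap in every gene but Hyal1, and the blue square of Zeb2 fl/fl replicate 2 is the highest point for Fn1, Vcan, Cd44, Tnfaip6 and Has2.

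Fn1 (ENSMUSG00000026193) encodes fibronectin and lies on the minus strand of chromosome 1 from 71585520 to 71653200. In the order of the replicates, the Zeb2 fl/fl libraries gave 117, 765 and 150.3 CPM and the Zeb2 cKO libraries 102, 102 and 189 CPM. The value of Zeb2 fl/fl replicate 2 was 6.53 times the median of the other 5 libraries, whose values of both genotypes were interspersed, so the groups overlapped. The mean of Zeb2 fl/fl hearts was 344 ± 365 CPM against 131 ± 50.6 CPM for Zeb2 cKO hearts (mean ± SD of 3 libraries). The log2 fold change was -1.39 (SE 0.73, 95% interval -3.13 to 0.34, adjusted p = 0.957 by edgeR with Benjamini-Hochberg adjustment). Without Zeb2 fl/fl replicate 2 it was -0.026 (SE 0.28, 95% interval -0.69 to 0.63). A decrease of 1 log2 unit lies inside the first interval. The second fit leaves out the highest Fn1 value, which narrows its interval, so that interval sets no limit on the difference. The antisense gene Apol7d shares 2.5% of the exon bases of Fn1 and reached at most 5 counts in a library.

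The gene of versican, a large hyaluronan-binding proteoglycan, showed a smaller spread. Vcan (ENSMUSG00000021614, chromosome 13, 89655312 to 89742509, minus strand) measured 66.4, 126 and 97.9 CPM in Zeb2 fl/fl hearts against 57.5, 62.5 and 95.9 CPM in Zeb2 cKO hearts. Of the Zeb2 cKO libraries, 2 lay below all Zeb2 fl/fl libraries and the third lay among them. The log2 fold change was -0.43 (SE 0.29, 95% interval -1.11 to 0.26, adjusted p = 0.957 by edgeR with Benjamini-Hochberg adjustment), and it was -0.19 (SE 0.25) without Zeb2 fl/fl replicate 2. The sign of the Vcan difference was the same in each of the 11 alternatives, from -0.69 to -0.19, and none of them called it. Hapln1 (ENSMUSG00000021613), which encodes the link protein that clamps versican onto hyaluronan, is the neighbour of Vcan on chromosome 13, from 89539796 to 89611652 on the plus strand, with 43659 bases between the 2 genes. It had 9, 3 and 7 counts in Zeb2 fl/fl and 9, 25 and 10 counts in Zeb2 cKO libraries, failed the filter and was not tested. Thus Hapln1 was lowest in the very library in which Vcan was highest, although at 3 counts the value is little more than the counting error.

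Of the synthases, Has2 (ENSMUSG00000022367, chromosome 15, 56665627 to 56694539, minus strand) encodes the enzyme that is needed for heart cushion formation in the embryo. It measured 1.12, 2.55 and 1.56 CPM in Zeb2 fl/fl hearts against 1.50, 1.41 and 2.12 CPM in Zeb2 cKO hearts, with all 3 Zeb2 cKO values inside the range of the controls. Its log2 fold change was -0.059 (SE 0.34, 95% interval -0.87 to 0.75, adjusted p = 0.988 by edgeR with Benjamini-Hochberg adjustment), and it was 0.33 (SE 0.27, 95% interval -0.31 to 0.97) without Zeb2 fl/fl replicate 2. The sign of the Has2 difference thus depended on the libraries included. Its antisense gene Has2os shares 4.3% of the Has2 exon bases and was at 0.161 to 0.547 CPM. Has1 (ENSMUSG00000003665, chromosome 17, 17843323 to 17855205, minus strand), which encodes a second synthase, had 2, 6 and 4 counts in Zeb2 fl/fl and 7, 9 and 5 counts in Zeb2 cKO libraries and failed the filter. At 2 to 9 counts no genotype difference in Has1 was detectable at this depth. The third synthase gene, Has3, which was in the wider pathway list, was at 0.535 ± 0.155 CPM per kb over the 6 libraries, above Has2 in all libraries but Zeb2 fl/fl replicate 2. In that library the order was turned, with 0.602 CPM per kb for Has2 and 0.232 CPM per kb for Has3.

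Cd44 (ENSMUSG00000005087, chromosome 2, 102811141 to 102901665, minus strand) encodes the principal cell surface receptor of hyaluronan, carried by leukocytes and fibroblasts among others. It measured 9.80, 22.4 and 16.0 CPM in Zeb2 fl/fl hearts against 12.7, 8.53 and 20.4 CPM in Zeb2 cKO hearts. Both groups spanned a range of more than 2-fold, and they overlapped over most of it. The log2 fold change was -0.21 (SE 0.39, 95% interval -1.14 to 0.71, adjusted p = 0.957 by edgeR with Benjamini-Hochberg adjustment), and 0.11 (SE 0.36) without Zeb2 fl/fl replicate 2. Tnfaip6 (ENSMUSG00000053475, chromosome 2, 52038009 to 52056686, plus strand) encodes TSG-6, an inflammation-induced protein that transfers heavy chains of inter-alpha-inhibitor onto hyaluronan. It measured 0.637, 2.85 and 1.12 CPM in Zeb2 fl/fl hearts against 0.979, 0.737 and 1.06 CPM in Zeb2 cKO hearts. Zeb2 fl/fl replicate 2 was 2.91 times the median of the other 5 libraries, and all Zeb2 cKO values lay between the other 2 control values. The log2 fold change of Tnfaip6 was -0.73 (SE 0.53, 95% interval -1.99 to 0.52, adjusted p = 0.957 by edgeR with Benjamini-Hochberg adjustment), and 0.083 (SE 0.32, 95% interval -0.67 to 0.84) without that library.

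Of the hyaluronidases, neither was highest in Zeb2 fl/fl replicate 2. Hyal1 (ENSMUSG00000010051, chromosome 9, 107576927 to 107581710, plus strand) encodes the lysosomal hyaluronidase that cuts hyaluronan to small fragments. Zeb2 fl/fl hearts gave 1.94, 2.44 and 1.41 CPM (73, 107 and 54 counts) against 3.74, 2.79 and 2.79 CPM (187, 121 and 150 counts) in Zeb2 cKO hearts. Every library of the knockout was above every control (two-sided exact permutation p = 0.1, the smallest it can give). Among all tested genes, 3.39% were separated in this direction and 2.97% in the other. The means were 1.93 ± 0.516 CPM and 3.11 ± 0.547 CPM (SD, n = 3 each), a ratio of 1.61. The log2 fold change was 0.69 (SE 0.25, 95% interval 0.093 to 1.28), with an unadjusted p of 0.0292 and an adjusted p of 0.957 by edgeR with Benjamini-Hochberg adjustment, so Hyal1 failed the correction. Leaving out Zeb2 fl/fl replicate 2 gave 0.90 (SE 0.23, unadjusted p = 0.00549 by edgeR). The unadjusted p rose above 0.05 when Zeb2 fl/fl replicate 1 (0.0603), Zeb2 fl/fl replicate 3 (0.0842) or Zeb2 cKO replicate 1 (0.102) was left out of the edgeR fit, and the log2 fold change stayed between 0.50 and 0.90 over all 11 alternatives.

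The count of Hyal1 is uncertain because of its neighbourhood. Naa80, an actin acetyltransferase gene on the same strand, shares 50.8% of the exon bases of Hyal1, Hyal3 shares 4.21%, and 63.8% of the longest Hyal1 transcript lies in stretches of at least 95% identity to transcripts of these and other genes. Naa80 measured 6.03, 3.78 and 4.79 CPM in Zeb2 fl/fl hearts against 6.20, 6.11 and 4.95 CPM in Zeb2 cKO hearts, with overlapping groups and a log2 fold change of 0.24 (SE 0.20). Reads of the shared exons cannot be told apart between the 2 genes in these counts. Hyal2 (ENSMUSG00000010047, 107567945 to 107572779, plus strand), 4147 bases from Hyal1 on the same chromosome, encodes a hyaluronidase anchored to the cell surface that makes the first cuts in long chains. Its SD over the 6 libraries was the smallest of the 9 genes relative to the mean, with 11.3, 9.50 and 13.0 CPM in Zeb2 fl/fl hearts against 9.69, 10.9 and 11.7 CPM in Zeb2 cKO hearts. Its log2 fold change was -0.063 (SE 0.15, 95% interval -0.42 to 0.30, adjusted p = 0.964 by edgeR with Benjamini-Hochberg adjustment), and -0.17 (SE 0.12) without Zeb2 fl/fl replicate 2.

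**Figure D3:**
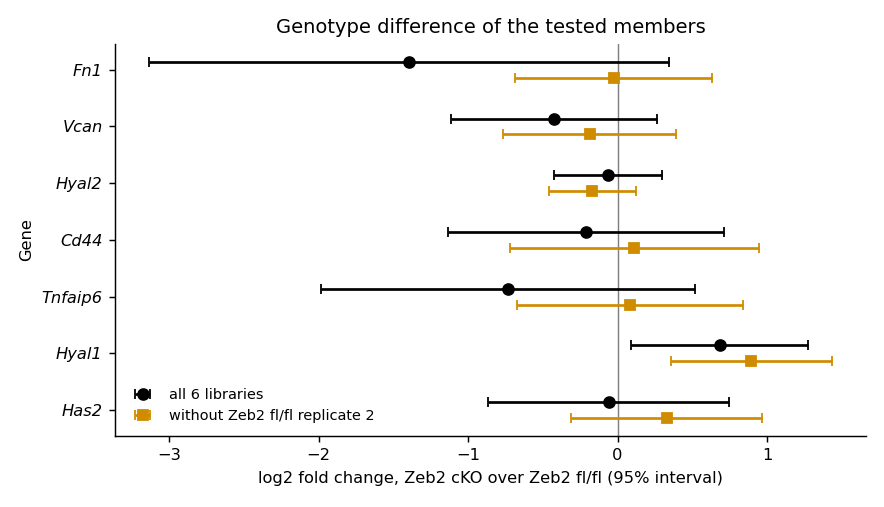
Log2 fold change of Zeb2 cKO over Zeb2 fl/fl hearts with its 95% interval for the 7 tested genes, from all 6 libraries (black circles) and without Zeb2 fl/fl replicate 2 (orange squares). The interval of Hyal1 lies above 0 in both fits, and Fn1 moves from -1.39 to -0.026 with a much narrower interval once the library is left out.

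Over the 7 tested genes, 6 log2 fold changes were below 0 and 1 was above, with a median of -0.21, beside 51.4% below 0 and a median of -0.0069 over all tested genes. Without Zeb2 fl/fl replicate 2, 3 were below 0 and 4 above, and the median was 0.083. At an unadjusted p under 0.05 in edgeR, 0 of the 7 were lower and 1, Hyal1, was higher, where 0.861% of all tested genes were lower and 1.04% were higher. After adjustment 0 of the 7 passed. Zeb2 fl/fl replicate 2 was the highest library in 5 of the 7 tested genes (71.4%), and in 35.2% of all tested genes. The 2 exceptions were the hyaluronidases, of which Hyal1 was highest in Zeb2 cKO replicate 1 and Hyal2 in Zeb2 fl/fl replicate 3.

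Ratios between genes of the same library do not depend on library size, and 7 of them were formed per kb. The Fn1 to Vcan ratio was 2.18, 7.52 and 1.90 among Zeb2 fl/fl hearts against 2.19, 2.01 and 2.44 among Zeb2 cKO hearts. Apart from Zeb2 fl/fl replicate 2, fibronectin and versican transcripts thus kept a ratio between 1.90 and 2.44 in both genotypes. Vcan relative to Has2 was at 17.4, 14.4 and 18.4 in Zeb2 fl/fl and at 11.2, 13.0 and 13.2 in Zeb2 cKO hearts, the 1 ratio of the 7 in which the groups did not overlap (exact permutation test, two-sided p = 0.1, 0.56 after Benjamini-Hochberg adjustment over the 7 ratios). This ratio was not set apart by Zeb2 fl/fl replicate 2, which was the lowest of its group. Hyal2 relative to Hyal1 was at 6.68, 4.47 and 10.6 in Zeb2 fl/fl and at 2.97, 4.48 and 4.81 in Zeb2 cKO hearts, with an overlap at 4.47 and 4.48. The exons that Hyal1 shares with Naa80 leave this ratio uncertain. The Fn1 to Cd44 ratio was 19.8 in Zeb2 fl/fl replicate 2 and between 4.64 and 6.94 in the other 5 libraries. The 3 remaining ratios, of Has2 to Hyal2, Has2 to Has1 and Vcan to Hapln1, also overlapped between the groups.

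The wider pathway was read from a list of 61 further genes in 6 role groups, of which 48 passed the filter. Of these, 36 had a log2 fold change below 0 and 12 above, with a median of -0.23, and 26 and 22 without Zeb2 fl/fl replicate 2, with a median of -0.0055, beside 51.4% below 0 over all tested genes with all libraries. That library was the highest in 35 of the 48 genes (72.9%), against 35.2% of all tested genes. At an unadjusted p under 0.05 in edgeR, 1 of the 48 was lower and 0 were higher, where all tested genes gave 0.861% and 1.04%, and 0 passed the adjustment. In 1 of the 48 the groups did not overlap, with Zeb2 cKO lower, as in 2.97% of all tested genes, and in 0 with Zeb2 cKO higher, against 3.39%. The counts that lean to lower values in Zeb2 cKO hearts thus went together with 1 control library, in which fibroblast and macrophage markers were also high.

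All 11 genes of hyaluronan synthesis and its sugar precursors were tested, and 8 were below 0, with a median log2 fold change of -0.20, whereas 6 were below 0 and the median was -0.0017 without Zeb2 fl/fl replicate 2. The smallest p of the group belonged to Pgm2, a phosphoglucomutase, with 4.35, 7.13 and 4.45 CPM in Zeb2 fl/fl hearts against 3.70, 3.85 and 4.56 CPM in Zeb2 cKO hearts (log2 fold change -0.40, unadjusted p = 0.126 by edgeR, and -0.12 without that library). Of 10 genes of degradation, 5 were tested and all 5 were below 0, and all 5 were highest in Zeb2 fl/fl replicate 2. Without it 2 were below 0 and 3 above, with a median of 0.084. Among them Cemip, which encodes a protein that drives hyaluronan breakdown in fibroblasts, measured 0.611, 10.4 and 0.807 CPM in Zeb2 fl/fl hearts against 0.240, 0.576 and 0.744 CPM in Zeb2 cKO hearts. Cemip was the lower gene counted above, with a log2 fold change of -2.92 (SE 1.15, unadjusted p = 0.0396 by edgeR), and a single library carried it, since the value without Zeb2 fl/fl replicate 2 was -0.44. The remaining hyaluronidase genes Hyal4, Spam1 and Hyal5 had 0 counts in every library, Hyal6 had none in 2 of the 6, and Hyal3 did not exceed 0.207 CPM.

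Receptors and clearance genes numbered 8, all tested, with 5 below 0, and 3 without Zeb2 fl/fl replicate 2. Tlr4, an innate immune receptor that also responds to hyaluronan fragments, had the smallest p of them, with 27.0, 49.9 and 42.1 CPM in Zeb2 fl/fl hearts against 31.4, 24.4 and 34.5 CPM in Zeb2 cKO hearts (log2 fold change -0.40, unadjusted p = 0.148 by edgeR, and -0.20 without that library). Of 14 proteoglycans, link proteins and heavy chains, 6 were tested and 5 were below 0, and 3 without that library. Acan, the gene of aggrecan, the proteoglycan of cartilage, which is also in the list of valve interstitial and chondrogenic markers, measured 0.186, 3.12 and 0.234 CPM in Zeb2 fl/fl hearts against 0.0600, 0.346 and 0.223 CPM in Zeb2 cKO hearts, and its log2 fold change of -2.51 became -0.025 without Zeb2 fl/fl replicate 2. As in Cemip, 1 of the 6 libraries stood far above the rest.

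Among 12 genes of fibronectin receptors and fibril assembly, all tested, 10 were below 0, and 8 without Zeb2 fl/fl replicate 2, with medians of -0.23 and -0.092. Sdc4, which encodes the syndecan that binds fibronectin beside integrins, measured 11.9, 22.6 and 11.3 CPM in Zeb2 fl/fl hearts against 11.0, 11.0 and 9.58 CPM in Zeb2 cKO hearts. This was the 1 gene of the list without overlap, by a narrow margin, and its log2 fold change was -0.54 (SE 0.28, unadjusted p = 0.0947 by edgeR) with all libraries and -0.14 without Zeb2 fl/fl replicate 2. The 6 proteases that cleave versican were split evenly, 3 below and 3 above 0, with a median of 0.0015, and without that library 4 were below 0 and 2 above, with a median of -0.12. Adamts4 had the smallest p of them, with 2.44, 3.85 and 2.66 CPM in Zeb2 fl/fl hearts against 0.839, 1.68 and 3.72 CPM in Zeb2 cKO hearts (log2 fold change -0.52, unadjusted p = 0.344 by edgeR, and -0.28 without that library). Whether the proteases differ from the other role groups was not tested.

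**Figure D4:**
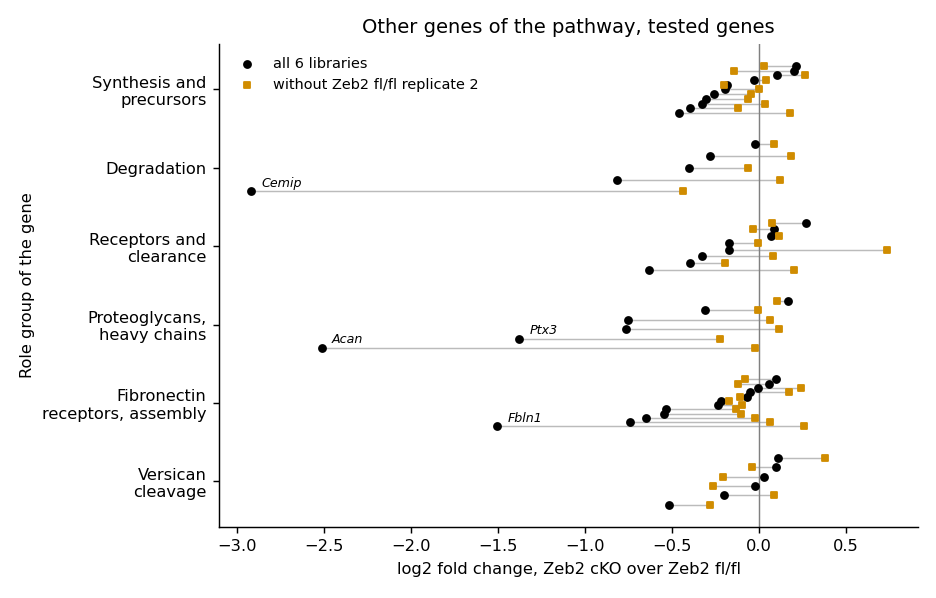
Log2 fold change of Zeb2 cKO over Zeb2 fl/fl hearts for 48 tested pathway genes by role group, from all 6 libraries (black circles) and without Zeb2 fl/fl replicate 2 (orange squares), joined by a grey line for each gene. Genes below -1 are named, a choice made after their values were seen, and their black circles lie far to the left of the orange squares, which centre near 0.

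For each tested gene, the genes with the most similar log2 CPM (prior count 2, Pearson's r over the 6 libraries) were looked up among 12320 genes with a mean of at least 1 CPM. Nearest to Fn1 were Heg1 (r = 0.998) and Tug1 (r = 0.998), nearest to Vcan were Fam76b (r = 0.998) and Tagln2 (r = 0.996), and nearest to Has2 were Stk38l (r = 0.996) and P4hb (r = 0.992). For Cd44 they were Gclm (r = 0.995) and Rtn4 (r = 0.993), for Hyal2 Tspan9 (r = 0.989) and Traf6 (r = 0.985), and for Tnfaip6 Gm2000 (r = 0.998) and Vkorc1l1 (r = 0.998). Hyal1 was followed least closely, by Ppm1m (r = 0.968) and Pisd-ps2 (r = 0.956), which without the 2 libraries farthest from the median of Hyal1 gave 0.919 and 0.781. For the other 12 pairs r without the 2 farthest libraries was at least 0.965, and Spearman's rho was at least 0.943 for all 14. These are the highest of 12320 correlations each over only 6 libraries that share preparation and genotype groups, so they describe the pattern and nothing more. The genes nearest to Fn1, Vcan, Has2, Cd44 and Tnfaip6 were, like these, highest in Zeb2 fl/fl replicate 2.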

How the data were processed

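RNA-seq covered 6 hearts, 3 per genotype, grouped by the sample labels. The authors deposited raw counts per gene, made from stranded single-end reads with the STAR workflow on Gencode M4 (GRCm38). The STAR version and strand setting were not given in the sources used here. The study tested with DESeq, version 1.2 in the submitters' processing notes. All 6 columns matched 1 sample each, and 0 were left unmatched.

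From these counts, genes were filtered with filterByExpr (minimum count 10), normalized with TMM and tested with glmQLFit and glmQLFTest in edgeR 4.0.16 (R 4.3.3), adjusted after Benjamini and Hochberg. Single values were compared by exact permutation tests in scipy 1.17.1. Coordinates and exon lengths came from Gencode M21 and near-identical stretches of at least 75 bases from BLAST 2.17.0. Intervals are at 95%. The steps were tested on simulated data, in which 39 of 100 genes with a change of 1 log2 unit were recovered. Of 100 genes with a change of 2 log2 units, 96 were recovered, and each size gave 8 false calls. Alternatives were RLE scaling, no filter, DESeq2 1.42.0, the replicate number as a block, no mitochondrially encoded genes, and each library left out. Members and lists were chosen with earlier results of these data known. Named were the members, the gene of smallest p and any without overlap in each role group, the 2 genes most correlated with each tested member, and Zeb2; other names were added after values were seen. Replicates are separate mice. Counting error is small beside their spread at high counts but not at low ones, such as 32 to 57 for Tnfaip6 in Zeb2 cKO hearts.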

Additional observations from a re-analysis of the deposited data

How the results depend on the processing

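The Fn1, Vcan and Hyal1 differences kept their direction under all 11 alternatives, and no alternative called any of the 9 genes or the 61 pathway genes. Across all genes, DESeq2 called 2 where edgeR called 0, and the number at an unadjusted p under 0.05 was 280 with all libraries and between 122 (without Zeb2 cKO replicate 1) and 1134 (without Zeb2 fl/fl replicate 1) otherwise, with 600 when no filter was applied and 361 by DESeq2. The log2 fold changes that changed sign did so only when 1 library was left out, and ran from -0.29 to 0.33 for Has2, -0.60 to 0.11 for Cd44, -1.10 to 0.083 for Tnfaip6 and -0.17 to 0.052 for Hyal2, and the cause was not tested. In the same fits Fn1 ran from -1.80 to -0.026, Vcan from -0.69 to -0.19 and Hyal1 from 0.50 to 0.90. The medians of the 7 tested genes and of the pathway list ran from -0.60 to 0.083 and from -0.35 to -0.0055, with the upper end of both without Zeb2 fl/fl replicate 2. Without Zeb2 fl/fl replicate 1, Fn1 (0.0325) and Tnfaip6 (0.0403) had an unadjusted p under 0.05 by edgeR. So did 10 pathway genes, against 1 with all libraries, while over all tested genes the number rose from 280 to 1134. Has1 and Hapln1 gave no fold change under these settings, since they failed the filter, and were not reported from the fit without it. The replicate numbers are shared by both groups, but same-numbered libraries deviated together with correlations of 0.088, -0.14 and -0.087, so they do not pair the mice. With the replicate number as a block, 0 genes were called and 247 had an unadjusted p under 0.05, and the log2 fold change of Fn1 was -0.86 and that of Hyal1 0.71. Depth limits Has1 and Hapln1, at 2 to 25 counts, and it adds to the limits of Tnfaip6, at 24 to 125 counts. In the other genes mainly the spread between 3 mice limits what can be seen.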
